A study of Mus musculus with 31 samples.

Results

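Cxcl17, Csn3, Crabp2, Cldn22 and Calml3 are 5 epithelial genes among the 22609 gene symbols counted in masseter muscle (MM) of mice. They were chosen by their higher counts at 5d post-CFA than in the vehicle mice of the same experiment, so their values in that contrast are described here without a test. The question was whether each of them followed Smr3a and Pip, which encode secreted proteins of salivary glands, over the libraries.

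MM was injected on the left side in wild-type male C57BL/6J mice that were 2 to 4 months old, and 1 bulk poly(A) RNA-seq library was made per mouse from the dissected left muscle. Complete Freund's adjuvant (CFA), an emulsion with killed mycobacteria that causes inflammation, was given to 3 mice collected at 1d and 3 mice collected at 5d, beside 3 vehicle mice. Type 2 collagenase (Col), an enzyme that degrades collagen, was given at 0.2U to 2 groups of 4 mice titled 1C and RPC, and at 10U to 4, 3 and 4 mice titled 2d, 6d and 12d, beside 3 vehicle mice of that experiment. The study's text gives days 1, 6 and 14 for the 10U groups, and the titles are used here. For 0.2U Col it gives days 1 and 5, but the labels do not say which day belongs to 1C and which to RPC. Vehicle was PBS, no group carried a transgene or deleted allele, and the 31 libraries form 9 groups.

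As background, the parotid salivary gland lies against the masseter, and the exorbital lacrimal gland and the skin of the cheek lie close by. Glands of this kind are branched tubes of simple epithelium: acinar cells secrete proteins and fluid, and the cells are sealed to each other by tight junctions built from claudins. Skin is a stratified epithelium in which basal keratinocytes carry Krt14 and differentiating keratinocytes carry Krt10. Skeletal muscle fibres are marked by Acta1 and Ckm.

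The 5 genes have different roles. Cxcl17 is a secreted mucosal chemokine made by epithelia. Csn3 encodes kappa-casein, the secreted protein that stabilizes casein micelles in milk. Cldn22 encodes a claudin of the tight junction. Crabp2 encodes a cytosolic carrier of retinoic acid, and Calml3 encodes a calmodulin-like calcium-binding protein of epithelia.

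On build mm9, Cxcl17 lies on the minus strand at chr7:26185072-26197905 and Csn3 on the plus strand at chr5:88354604-88361690. Crabp2 is on the plus strand at chr3:87752588-87757298, Cldn22 on the plus strand at chr8:48909836-48910829 and Calml3 on the minus strand at chr13:3802139-3803564. All are annotated as protein-coding, and the exons of Cxcl17, Csn3, Crabp2 and Calml3 held no 50-base window found in transcripts of another gene. Smr3a lies at chr5:88431550-88437559, and 69859 bases separate it from Csn3. Pip lies at chr6:41797548-41802061.

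Cldn22 is the member with a close copy. Its coding sequence and that of the neighbouring Cldn24 are both 663 bases long and identical at 598 positions (90.2%), and 44.8% of the 50-base windows of Cldn22 also occur in Cldn24. A read of 50 bases from such a window fits both genes, and the deposited tables tally reads without a unique placement on a line of their own, apart from the genes. The stretch below is the 50-base window in which the coding sequences differ at the most positions (29), and it is shown because reads from such windows are what tells the genes apart; capitals mark the differing bases. The Cldn22 copy is at chr8:48910493-48910542 and the Cldn24 copy at chr8:48908107-48908156, both mm9, plus strand and exonic.
Cldn22: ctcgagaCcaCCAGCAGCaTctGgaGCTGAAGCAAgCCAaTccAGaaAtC
Cldn24: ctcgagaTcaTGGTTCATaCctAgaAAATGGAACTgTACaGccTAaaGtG

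Cldn24 had 0 to 2 counts in each of the 31 libraries while Cldn22 had between 0 and 1797. Wwc2 lies on the opposite strand within 5000 bases of Cldn22, and whether the strand of reads was used in counting is not given in the sources used here. Wwc2 stood between 23.0 and 45.4 CPM in all libraries, including those with 0 to 6 counts of Cldn22.

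RefSeq promoters were at hand for Cldn22, Smr3a and Pip, 3 of these 7 genes, and are shown because Cldn22 was the member with the highest r with Smr3a over the 31 libraries (0.957). Each is the plus-strand 100 bases before the annotated start on build GRCm38.p6, at chr8:47824382-47824481 for Cldn22, chr5:88002425-88002524 for Smr3a and chr6:41847449-41847548 for Pip. Capitals mark matches, on either strand, to any of 7 motifs. These were the TATA box, spelled TATAAA, and the core of the GRHL epithelial factors, spelled AACNGGTT. The E-box of bHLH factors was spelled CAGCTG, and the core of ETS and ELF factors was spelled AGGAAG. The NF-kB motif was spelled GGANTTTCC, the nuclear receptor site was spelled AGGTCA, and the AP-1 motif was spelled TGANTCA, with N for any base.
Cldn22: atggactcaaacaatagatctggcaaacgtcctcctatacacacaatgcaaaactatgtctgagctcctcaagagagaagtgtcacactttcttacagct
Smr3a: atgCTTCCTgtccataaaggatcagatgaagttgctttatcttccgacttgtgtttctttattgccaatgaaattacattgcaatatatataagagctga
Pip: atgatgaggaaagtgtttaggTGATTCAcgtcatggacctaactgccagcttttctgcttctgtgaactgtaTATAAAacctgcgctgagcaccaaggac

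In the full 300 bases of the table, from 250 before to 50 after the start, Cldn22 matched 0 of the 7 motifs. Smr3a matched ETS at positions -178 and -97 and AP-1 at -200, and Pip matched the TATA box at -28 and -225 and AP-1 at -79. Of 32851 mouse promoters of that length, 13.6% held the TATA box, 2.1% the GRHL letters, 16.3% the E-box, 35.4% ETS, 1.3% NF-kB, 16.3% the nuclear receptor site and 7.8% AP-1. Since Cldn22 held no match, a motif shared with Smr3a or Pip was not possible, and nothing is read from this on their regulation.

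The libraries held 14843778 to 29076671 reads on genes (median 20834472), and values below are counts scaled to library size (CPM) with edgeR's TMM factors. Acta1 stood between 8880 and 57200 CPM in all libraries, and salivary genes divided them. Smr3a was 4970 to 147000 CPM in 15 libraries and 0.471 to 641 CPM in the other 16, and it took up to 9.5% of all reads on genes. The high libraries were all 3 mice at 5d post-CFA, 1 vehicle mouse (replicate 3) and 1 mouse at 1d (replicate 1) of the CFA experiment, and in the Col experiment 2 of 3 vehicle mice (replicates 2 and 3), all 4 RPC mice, 1 of 4 1C mice (replicate 3) and 3 of 4 mice at 2d (all but replicate 3). None of the mice at 6d or 12d was among them. Vehicle mice are thus on both sides in both experiments, and results below are given beside the Smr3a level. In bulk tissue, fewer cells of a type and less RNA per cell cannot be told apart.

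At 5d post-CFA all 5 genes stood above the vehicle group of the CFA experiment in 3 of 3 mice. This is the contrast that chose them. Of 14026 genes tested with edgeR's quasi-likelihood test, 0.863% were called higher and 0.0428% lower there. The 5d and vehicle values of 19.9% of these genes did not overlap, in either direction. Nothing is read from these shares for the members.

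Cxcl17 was 21.5, 14.5 and 14.2 CPM at 5d post-CFA, 6.62, 1.14 and 3.67 CPM at 1d, and 2.45, 1.45 and 3.08 CPM in the vehicle mice. The 5d mice were above both other groups, while 1d and vehicle overlapped. The log2 difference from vehicle was 2.90 at 5d and 0.69 at 1d. Cxcl17 was the only member with at least 25 counts in every CFA library.

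Csn3 was 12.5, 11.3 and 8.10 CPM at 5d, against 0, 0 and 0.445 CPM in the vehicle mice, and 1d libraries had 0 or 1 count each. The single vehicle library with Csn3 counts (12 reads) was replicate 3, the vehicle library high in Smr3a. The log2 difference at 5d was 6.06.

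Cldn22 was 83.6, 49.2 and 54.1 CPM at 5d, 2.90, 0.548 and 0.232 CPM at 1d, and 0.573, 1.55 and 5.15 CPM in the vehicle mice. The highest 1d value was that of replicate 1 and the highest vehicle value that of replicate 3, the libraries of these groups that were high in Smr3a. The log2 difference was 4.71 at 5d and -1.01 at 1d.

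Crabp2 was 18.0, 12.4 and 10.3 CPM at 5d, 1.73, 0 and 0.743 CPM at 1d, and 0.123, 0.281 and 1.15 CPM in the vehicle mice. Calml3 was 25.8, 19.6 and 23.0 CPM at 5d, 2.30, 0.320 and 2.74 CPM at 1d, and 0.491, 0.515 and 1.82 CPM in the vehicle mice. The log2 differences from vehicle at 5d were 4.71 for Crabp2 and 4.62 for Calml3. Per length, the mean levels at 5d were 48.5 RPKM for Cldn22, 17.0 for Cxcl17, 12.3 for Calml3, 7.90 for Crabp2 and 1.96 for Csn3. On the same per-length scale Smr3a averaged 102000 RPKM at 5d.

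The same mice at 5d had 106000, 79800 and 78300 CPM of Smr3a and 6400, 3690 and 5290 CPM of Pip. The vehicle mice had 20.9, 41.2 and 7090 CPM of Smr3a and 1.35, 3.19 and 1510 CPM of Pip. Epcam, an adhesion protein of simple epithelium, was 49.5 to 73.7 CPM at 5d and 1.22 to 14.7 CPM in vehicle. The salivary list of 20 genes had a mean log2(CPM + 0.5) of 7.25 to 7.55 at 5d, 0.35 to 4.88 at 1d and 0.44 to 5.14 in vehicle, with 2 of its genes at 0 in all libraries. The rise of the 5 genes at 5d and that of the salivary genes occurred in the same 3 mice, and the part of one in the other was not tested there.

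**Figure D1:**
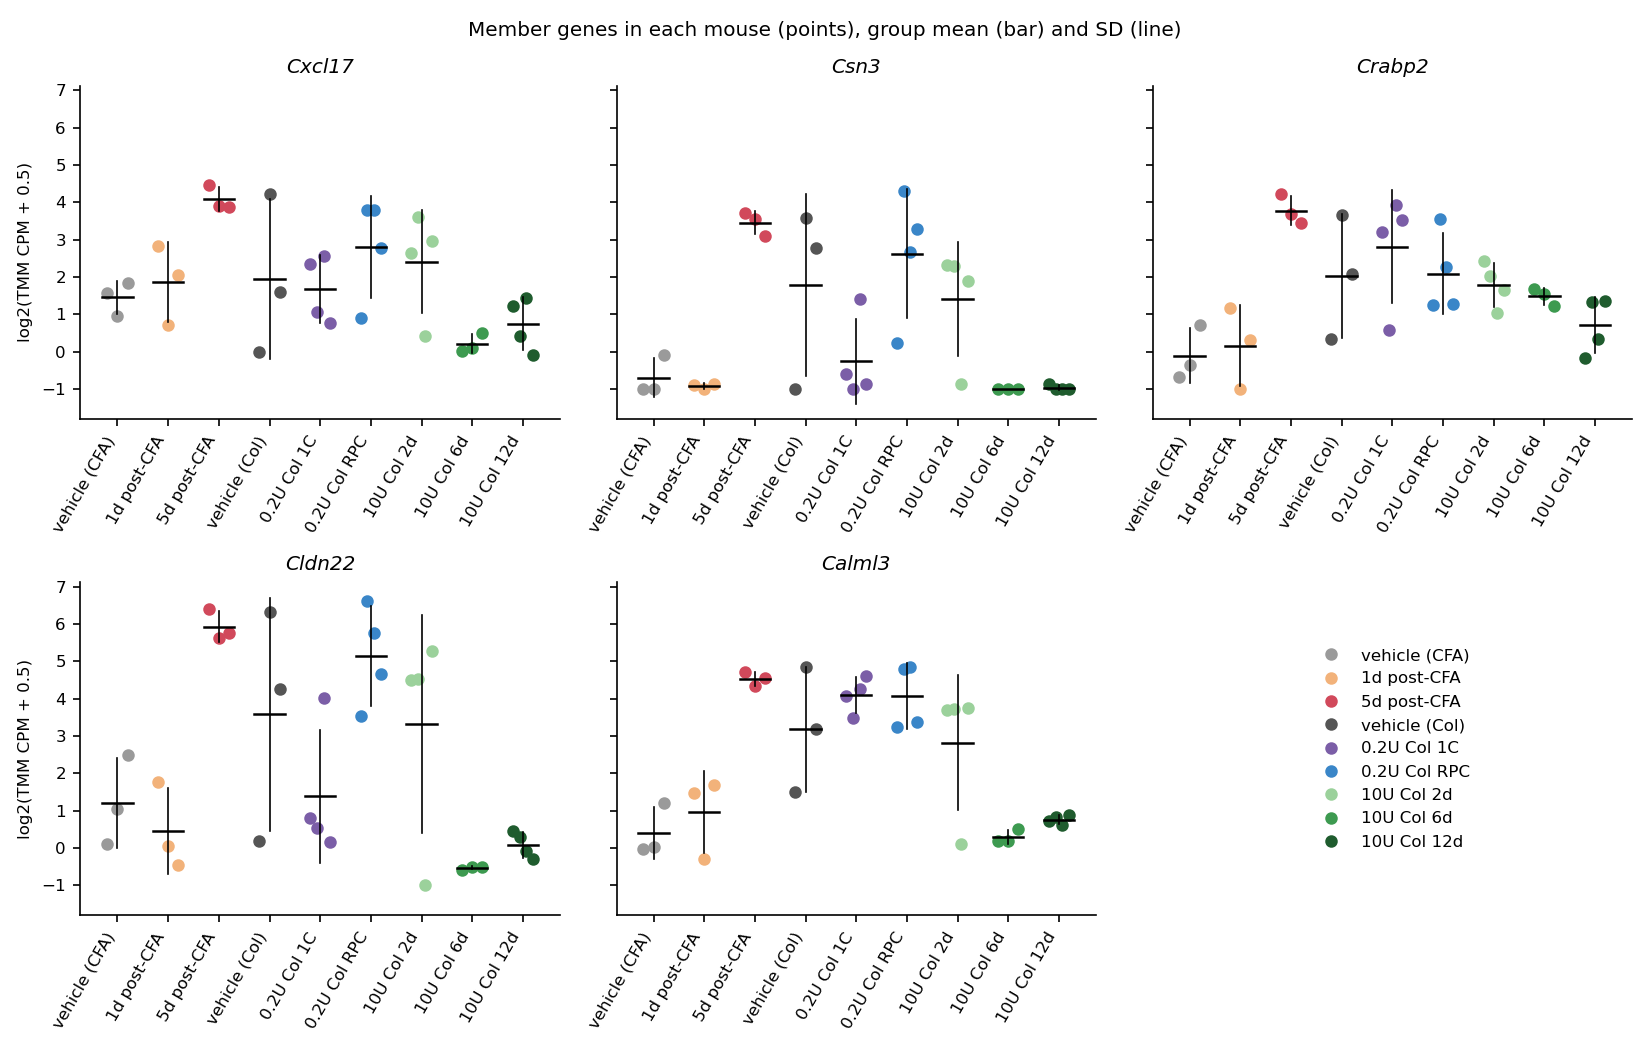
TMM-scaled CPM of the 5 genes on a log2(CPM + 0.5) scale (y axis) in each of the 31 mice, by group (x axis); points are mice, bars are group means and lines are 1 SD on that scale. The 3 mice at 5d post-CFA lie together, for Cldn22 at 49.2 to 83.6 CPM, while the Col vehicle, RPC and 2d groups spread widely.

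The Col libraries were not used to choose the genes, and each Col group was compared with the Col vehicle group. A gene was called where edgeR's quasi-likelihood test gave an adjusted p under 0.05 over all genes tested, the change was more than 2-fold, and at least 1 of the groups averaged more than 1 RPKM. The vehicle mice themselves differed in all 5 genes. Replicate 1, low in Smr3a at 22.6 CPM, had 0.501 CPM of Cxcl17, 0 of Csn3, 0.637 of Cldn22, 0.774 of Crabp2 and 2.32 of Calml3. Replicate 2, with 93600 CPM of Smr3a, had 18.3, 11.4, 79.2, 12.1 and 28.1 CPM of the same genes in that order. Replicate 3, with 22600 CPM of Smr3a, lay between them with 2.54, 6.34, 18.7, 3.76 and 8.69 CPM. The values of vehicle replicate 2 lay within the range at 5d post-CFA for 4 of the 5 genes and above it for Calml3.

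In the 0.2U groups, 0 of 5 members were called in either direction, and 0% of 14493 genes in 1C and 0% of 14269 in RPC were called higher or lower by edgeR. At an unadjusted p under 0.05, 1819 genes differed in 1C and 1923 in RPC, and DESeq2 called 266 higher and 39 lower in 1C and 109 higher and 43 lower in RPC. Cldn22 was 11.2, 96.9, 53.8 and 25.0 CPM in RPC, and Csn3 0.674, 19.1, 5.90 and 9.25 CPM. These values overlapped vehicle, with log2 fold changes of 0.55 (SE 1.2, adjusted p = 0.858) for Cldn22 and 0.59 (SE 1.34, adjusted p = 0.862) for Csn3. Cxcl17 in RPC was 1.35, 13.3, 13.3 and 6.40 CPM, and replicate 1, the lowest in all 5 genes, was also the RPC library with the least Smr3a (14700 CPM).

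In 1C the pattern over the mice differed between members, and this difference was not tested. Csn3 was 0.165, 0, 2.18 and 0.0477 CPM and Cldn22 1.26, 0.947, 15.8 and 0.620 CPM, so replicate 3, the 1C library high in Smr3a, stood above the others for both. Crabp2 was 8.73, 0.997, 14.8 and 11 CPM and Calml3 16.2, 10.6, 18.8 and 24 CPM, so that replicate 4, low in Smr3a at 40.4 CPM, came close to replicate 3 in Crabp2 and was above it in Calml3. The log2 fold changes against vehicle were -3.28 (SE 1.72, adjusted p = 0.470) for Csn3, -2.80 (SE 1.52, adjusted p = 0.481) for Cldn22, 0.70 (SE 1.0, adjusted p = 0.778) for Crabp2 and 0.41 (SE 0.72, adjusted p = 0.821) for Calml3. Cxcl17 was 4.61, 1.59, 5.39 and 1.19 CPM, with a log2 fold change of -1.15 (SE 1.06, adjusted p = 0.661) that changed sign without vehicle replicate 2 (1.10) and with the replicate block (0.53).

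At 2d after 10U Col, 0 of 5 members were called, and 0.96% of 14373 genes were called higher and 0.8% lower. Cldn22 was 22, 22.5, 0 and 38.7 CPM and Calml3 12.5, 12.8, 0.577 and 13.0 CPM. Replicate 3 was the lowest of the group in all 5 genes and the only 2d library low in Smr3a (8.12 CPM). Its Csn3 rested on 1 count, and its Cldn22 on 0, which allows up to 3 counts.

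At 6d after 10U Col, 2 of the 4 members tested were called lower, Cldn22 and Calml3, where 7.09% of 14281 genes were called lower and 8.56% higher. Cldn22 was 0.171, 0.203 and 0.209 CPM, all below the lowest vehicle mouse, with a log2 fold change of -7.36 (SE 1.62, adjusted p = 0.0183). With 4 to 6 counts per 6d library, it reached the 10 counts needed for testing only in the 3 vehicle mice (14 to 1214 counts). A call of Cldn22 could therefore only be a lower one, and it is not read against the 7.09%. Calml3 was 0.642, 0.644 and 0.919 CPM, also below all vehicle mice, with a log2 fold change of -4.14 (SE 0.86, adjusted p = 0.0160). Of the 14281 genes, 47% had 6d values that did not overlap with vehicle, in either direction. Leaving out any single 6d library ended both calls (edgeR adjusted p 0.0637 to 0.0816 for Cldn22 and 0.0508 to 0.0728 for Calml3) with log2 fold changes that stayed between -7.39 and -7.27 and between -4.32 and -4.03. With the vehicle mice of both experiments as reference, Calml3 was not called (log2 fold change -3.22, adjusted p = 0.0826), and without any 1 vehicle library Cldn22 had too few counts to be tested.

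Cxcl17 at 6d was 0.514, 0.576 and 0.919 CPM, which overlapped vehicle, with a log2 fold change of -3.39 (SE 1.15, edgeR adjusted p = 0.0613) that DESeq2 placed under the threshold (adjusted p = 0.00231). Crabp2 was 2.70, 2.40 and 1.84 CPM at 6d, which overlapped vehicle, with a log2 fold change of -1.25 (SE 0.81, adjusted p = 0.267). Csn3 had 0 counts in all 3 libraries and too few counts to be tested, and against 3 counts per library its mean in vehicle (5.92 CPM) was at least 50.0-fold higher. Smr3a at 6d was 0.471, 0.508 and 2.00 CPM, a log2 fold change of -15.25 (SE 3.01, adjusted p = 0.0136).

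At 12d after 10U Col, 0 members were called by edgeR, where 0.324% of 14176 genes were called lower and 0.48% higher. Cldn22 was 0.868, 0.725, 0.443 and 0.312 CPM (log2 fold change -5.78, SE 1.29, adjusted p = 0.0871) and Calml3 1.16, 1.27, 1.05 and 1.34 CPM (log2 fold change -3.40, SE 0.73, adjusted p = 0.0790). DESeq2 called both lower, with adjusted p of 0.000325 and 6.57e-05, as did edgeR without vehicle replicate 1, the vehicle library low in Smr3a (adjusted p = 0.00967 and 0.0142). Crabp2 was 0.386, 1.99, 0.775 and 2.05 CPM and Cxcl17 1.83, 0.845, 2.21 and 0.445 CPM, and neither passed the test (adjusted p = 0.290 and 0.292). Csn3 had 1 count in 1 of the 4 libraries, and its vehicle mean was at least 37.9-fold higher than 3 counts per library.

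Among the 6 Col groups together, edgeR's F test gave an adjusted p of 0.0297 for Cxcl17, 0.00444 for Csn3, 0.00344 for Cldn22, 0.000847 for Calml3 and 0.0654 for Crabp2. The call of Cxcl17 was lost without any 1 of 5 libraries (RPC replicate 2, 12d replicate 2 and each 6d library, edgeR adjusted p 0.0508 to 0.0716), and Crabp2 passed without any 1 of 4 (1C replicate 2, RPC replicate 2 and vehicle replicates 1 and 2, edgeR adjusted p 0.0208 to 0.0447) and with DESeq2's likelihood ratio test (adjusted p = 0.0139). The share of all genes that differed among these groups was 58.5% of 15385, and the members' count of 4 of 5 is read against that share. The order of group means was led for all 5 genes by 5d post-CFA, the group whose rise chose them, so nothing is read from its place. RPC came next for Cxcl17, Csn3, Cldn22 and Calml3, and 1C for Crabp2. In that order, neighbouring groups overlapped in range everywhere except between 5d post-CFA and RPC for Cxcl17 and between 12d and 6d for Cldn22. Cxcl17 in Col vehicle replicate 2 (18.3 CPM) was nonetheless within its 5d range of 14.2 to 21.5 CPM. Csn3, Cxcl17, Cldn22 and Calml3 were lowest at 6d, and Crabp2 was lowest in the CFA vehicle group (0.518 CPM ± 0.552 SD, n = 3).

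The 10U libraries differed from the other Col libraries in their share of ambiguous reads, those that overlap more than 1 gene, which were 0.68% to 0.883% of the reads on genes against 0.147% to 0.318% in the other Col libraries. This difference and the 10U treatment cannot be told apart in a comparison of a 10U group with vehicle. The 6d mice also had 8880 to 15000 CPM of Acta1 against 20400 to 42400 CPM in vehicle, a gene of the muscle fibre.

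Over the 22 Col libraries Smr3a fell into separate sets, 10 libraries at 14700 CPM or above and 12 at 641 CPM or below, with a gap of 4.52 on the log2 scale where the next largest gap was 2.07. Pip also fell into separate sets, 12 libraries at 495 CPM or above and 10 at 25.5 CPM or below (gap 4.26, next 1.73). A correlation over all libraries would mainly restate these gaps, so relations were computed within each set. The sets were drawn from the data and are not treatment groups. Libraries were permuted across the treatment groups of a set, so differences between groups enter the permutation p-values below. Of 20 relations of 5 genes with 2 salivary genes in 2 sets each, 18 were tested, and 2 were left out because Csn3 had 3 counts or fewer in every low library.

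Cldn22 passed the test with Smr3a in both sets. In the 10 libraries high in Smr3a, Pearson's r of log2(CPM + 0.5) was 0.95 (permutation p = 4e-05, adjusted p = 0.00072) and Spearman's rho 0.99 (permutation p = 2e-05, adjusted p = 0.00036), and r was 0.91 without the 2 libraries farthest from the median of Smr3a. In the 12 low libraries r was 0.83 (permutation p = 0.00102, adjusted p = 0.00459) and rho 0.86 (permutation p = 0.00075, adjusted p = 0.0057). Within the 7 high libraries that were not from 10U mice, r was 0.97 (permutation p = 0.00169, adjusted p = 0.0169), and within the 8 low libraries from 10U mice it was 0.69 (permutation p = 0.0564, adjusted p = 0.150).

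Cxcl17 also followed Smr3a, with r of 0.90 (permutation p = 0.00042, adjusted p = 0.00378) and rho of 0.90 (permutation p = 0.00095, adjusted p = 0.0057) in the 10 high libraries. In the 12 low libraries r was 0.82 (permutation p = 0.00065, adjusted p = 0.0039) and rho 0.76 (permutation p = 0.00605, adjusted p = 0.0218). Without the 2 farthest libraries these r were 0.87 and 0.66. Within the 7 high libraries not from 10U mice r was 0.93 (permutation p = 0.00526, adjusted p = 0.0263), and within the 8 low libraries from 10U mice it was 0.79 (permutation p = 0.0190, adjusted p = 0.0759).

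Csn3 had r of 0.81 with Smr3a in the 10 high libraries (permutation p = 0.00467, adjusted p = 0.0120) and rho of 0.71 (permutation p = 0.0267, adjusted p = 0.0481), but r fell to 0.52 without the 2 farthest libraries, so this relation rested in large part on them. Calml3 had r of 0.76 (permutation p = 0.0130, adjusted p = 0.0292) and rho of 0.72 (permutation p = 0.0240, adjusted p = 0.0481) in the same libraries, and 0.63 without the 2 farthest. In the 12 low libraries Calml3 had r of 0.68 (permutation p = 0.0158, adjusted p = 0.0317) and rho of 0.71 (permutation p = 0.0135, adjusted p = 0.0348), which was -0.10 on deviations from group means and 0.58 within the 8 libraries from 10U mice (permutation p = 0.135, adjusted p = 0.216). Within the 7 high libraries not from 10U mice, r was 0.84 for Csn3 (permutation p = 0.0117, adjusted p = 0.0389) and 0.79 for Calml3 (permutation p = 0.0695, adjusted p = 0.139).

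Crabp2 did not pass the test with Smr3a in either set. Its r was 0.34 (permutation p = 0.330, adjusted p = 0.372) in the high libraries, with rho of 0.25 (permutation p = 0.492, adjusted p = 0.492), and 0.11 (permutation p = 0.737, adjusted p = 0.737) in the low libraries, with rho of -0.23 (permutation p = 0.468, adjusted p = 0.492). Without 1C replicate 3 the r in the high libraries was 0.68 (permutation test, adjusted p = 0.0657), and without RPC replicate 1 it was 0.14. In the 8 low libraries from 10U mice Crabp2 was higher where Smr3a was lower, with r of -0.92 (permutation p = 0.00070, adjusted p = 0.0056). On deviations from group means in the 10 high libraries, r was 0.79 for Crabp2 and 0.84 to 0.97 for the other 4 genes, with adjusted p of 0.0625 to 0.170 in the exact test over 288 arrangements. The smallest exact p of that test is 0.00347, or 0.0625 adjusted when a single relation reaches it, so that test cannot pass a single relation on its own.

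Relations with Pip were computed in the same way. The libraries high in Pip included 1C replicate 1 and 12d replicate 2, which were low in Smr3a (641 and 11.8 CPM). These 2 had 51100 and 3630 CPM of Obp1a, a gene abundant in the lacrimal gland, and 1.26 and 0.725 CPM of Cldn22. In the 12 libraries high in Pip, r was 0.80 for Calml3 (permutation p = 0.00188, adjusted p = 0.00677), 0.79 for Cxcl17 (permutation p = 0.00226, adjusted p = 0.00678), 0.63 for Cldn22 (permutation p = 0.0274, adjusted p = 0.0493), 0.62 for Csn3 (permutation p = 0.0307, adjusted p = 0.0503) and 0.34 for Crabp2 (permutation p = 0.278, adjusted p = 0.357). The rho were 0.66, 0.74, 0.78, 0.59 and 0.24 in that order (permutation p = 0.0240, 0.00782, 0.0042, 0.0459 and 0.442, adjusted p = 0.0481, 0.0235, 0.0189, 0.0751 and 0.492). Without the 2 farthest libraries r fell to 0.53, 0.61, 0.24, 0.25 and 0.00. In the 10 libraries low in Pip, 0 of 4 relations passed, with r from -0.28 to 0.62. Within the 8 libraries high in Pip and not from 10U mice, r was 0.38 for Cldn22 and 0.48 for Csn3. Whether the relations with Smr3a and Pip differ from each other was not tested.

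**Figure D2:**
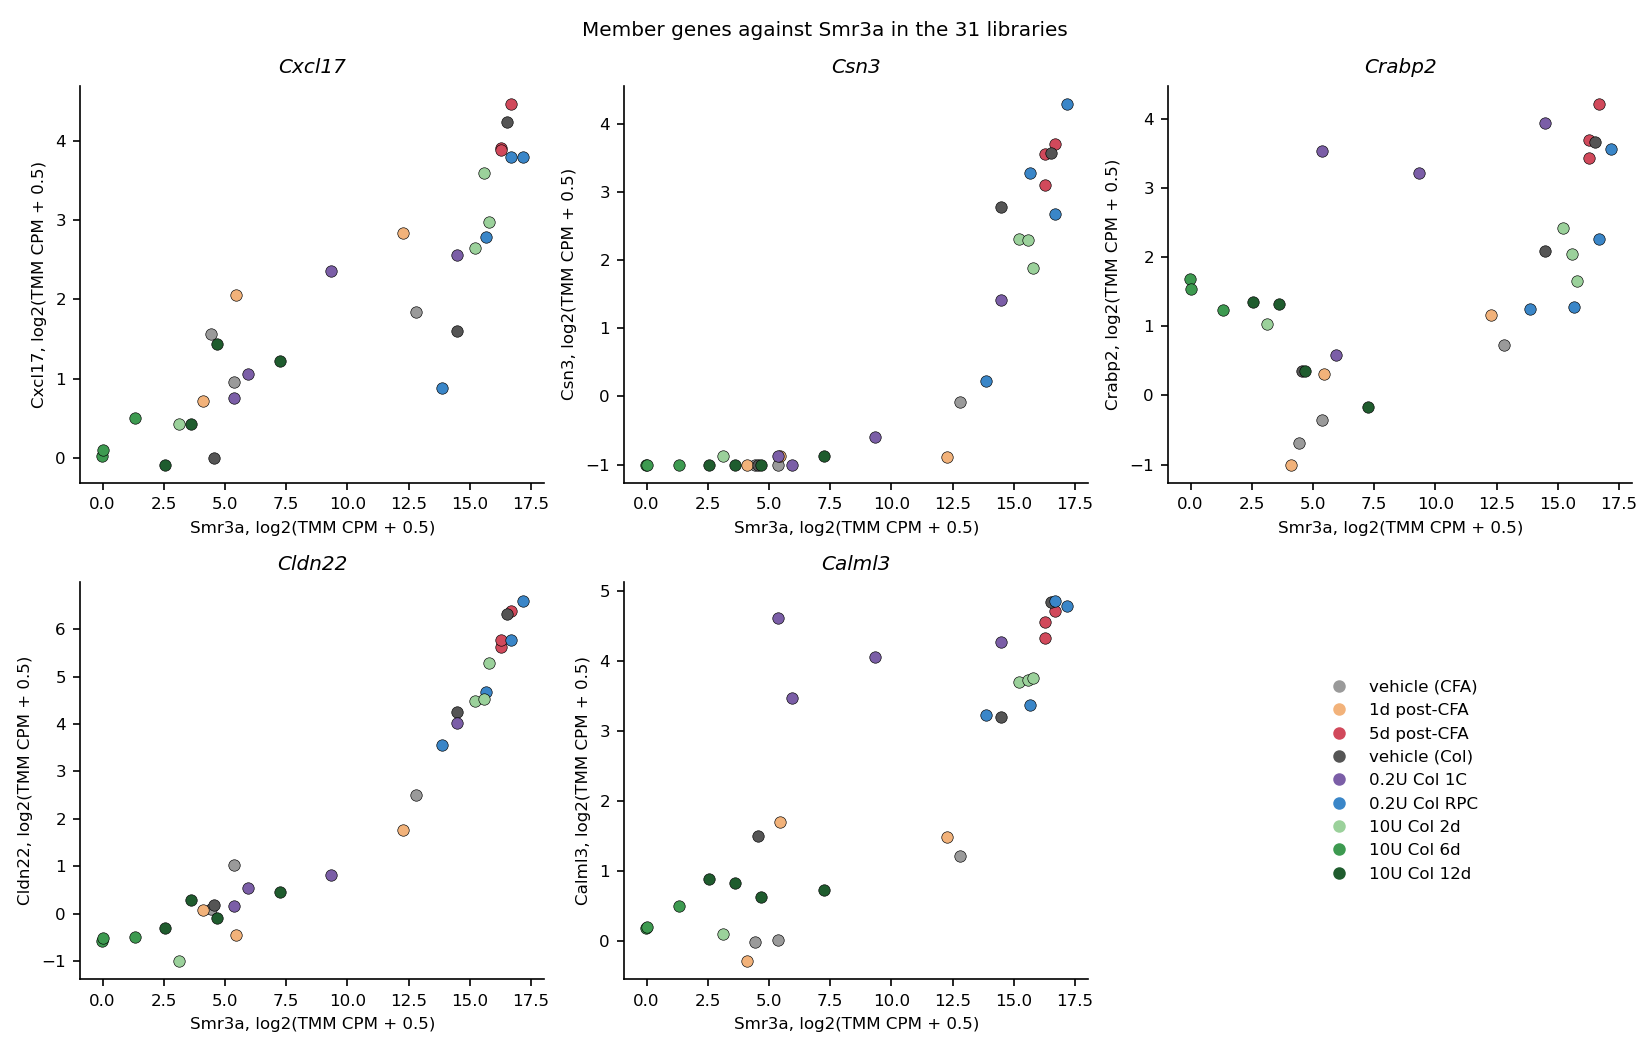
Level of each gene (y axis) against Smr3a (x axis), both as log2(TMM CPM + 0.5), in the 31 libraries, coloured by group. Cldn22 and Csn3 lie near the bottom in libraries low in Smr3a and climb with it in the others, Cxcl17 climbs over the whole range, and Crabp2 and Calml3 have 1C libraries far above the rest at low Smr3a.

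The counts of a member per 10000 counts of Smr3a show the same within libraries. This ratio does not depend on the scaling of a library. In the 15 libraries high in Smr3a, which include the CFA libraries, Cldn22 had 4.59 to 8.47 counts per 10000 of Smr3a (median 6.83), a 1.85-fold range, while Smr3a itself ranged from 4970 to 147000 CPM. At 5d post-CFA the 3 ratios were 7.85, 6.16 and 6.91, and in the 12 other libraries, vehicle mice included, they ran from 4.59 to 8.47. The Col vehicle mice had 8.47 and 8.24, and the single CFA vehicle library had 7.26.

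For Cxcl17 the ratios at 5d were 2.02, 1.82 and 1.81, within the 0.899 to 13.3 of the other 12 libraries. The highest, 13.3 and 4.34, belonged to the CFA libraries with the least Smr3a, 1d replicate 1 and vehicle replicate 3. For Csn3 the 5d ratios were 1.17, 1.42 and 1.03, and the others ran from 0.0811, which is a single count in 1d replicate 1, to 2.80 in Col vehicle replicate 3. Among the 13 libraries over 10000 CPM of Smr3a, the range was 2.67-fold for Cxcl17, 6.10-fold for Csn3, 1.85-fold for Cldn22, 4.55-fold for Calml3 and 18.1-fold for Crabp2.

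For Crabp2 the 5d ratios were 1.69, 1.55 and 1.31, and the others ran from 0.366 in RPC replicate 4 to 6.61 in 1C replicate 3. For Calml3 the 5d ratios were 2.42, 2.46 and 2.94, and the others ran from 1.84 in RPC replicate 2 to 8.38 in 1C replicate 3. The 5d libraries were therefore inside the range of the other libraries high in Smr3a for all 5 genes. Amy1, salivary amylase, had a 2.92-fold range and Pip a 5.0-fold range of the same ratio over the 15 libraries.

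**Figure D3:**
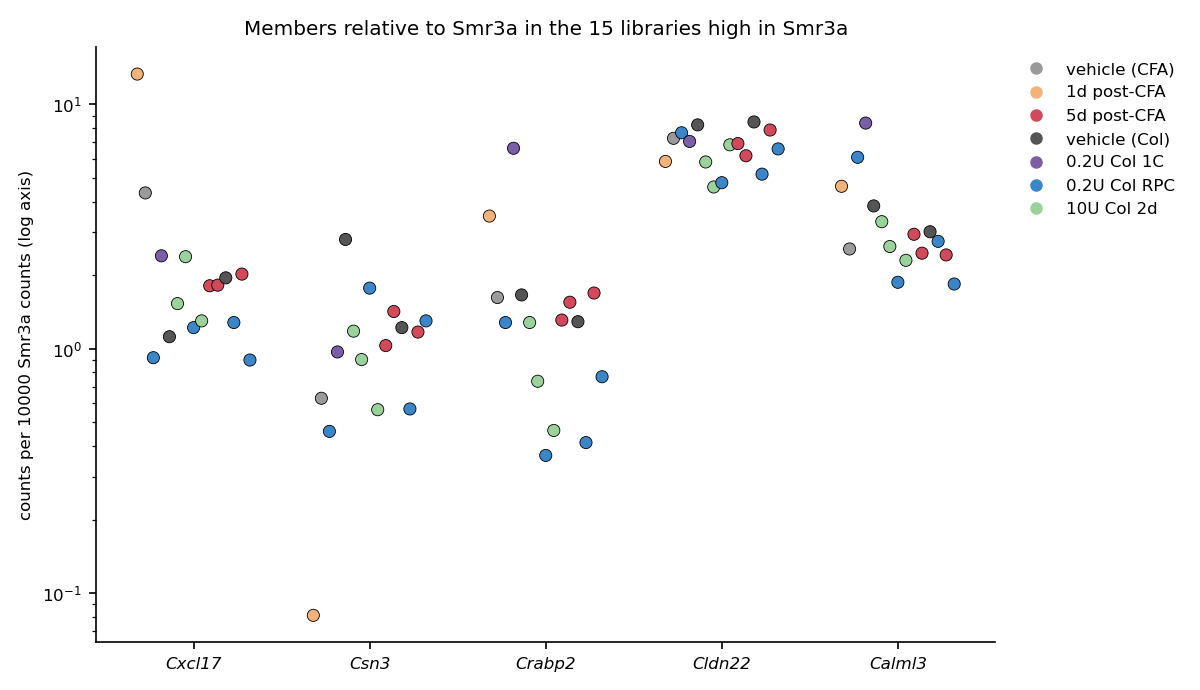
Counts of each gene per 10000 counts of Smr3a (y axis, log scale) in the 15 libraries high in Smr3a, ordered from left to right by Smr3a within each gene and coloured by group. Cldn22 keeps between 4.59 and 8.47 in all of them, and the 3 red 5d post-CFA points lie among the others for every gene.

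Where Smr3a was low, the members parted. In the 16 low libraries Csn3 had 0 to 3 counts and Cldn22 stayed at 0 to 1.55 CPM. Cxcl17 was never absent, at 0.445 to 4.61 CPM and 10 counts or more in each. Crabp2 reached 11 CPM and Calml3 24 CPM, which were values as high as at 5d post-CFA.

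The high values of Crabp2 and Calml3 without Smr3a were those of 1C mice. In the 3 1C libraries low in Smr3a, Calml3 was 10.6 to 24 CPM against 0.320 to 2.74 CPM in the other 13 low libraries, and Crabp2 0.997 to 11 CPM against 0 to 2.70 CPM. Krt14, the keratin of basal keratinocytes, was 22 to 163 CPM in these 3 libraries and 0.799 to 27.6 CPM in the other 13. Krt10, the keratin of differentiating keratinocytes, was 77.4 to 175 CPM against 1.08 to 29.7 CPM. Replicate 2, the lowest of the 3 in Krt14, was also the lowest in both Crabp2 and Calml3, but its Krt10 (163 CPM) was above that of replicate 1 (77.4 CPM). Replicate 3 at 1d post-CFA, also low in Smr3a, had more Krt14 (27.6 CPM) than 1C replicate 2 (22 CPM). Its Calml3 (2.74 CPM) and Crabp2 (0.743 CPM) were nonetheless lower. This comparison of libraries was made after their values were seen and was not tested.

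The epidermal list of 19 genes, without Calml3, had a mean log2(CPM + 0.5) of 3.14 to 4.85 in 1C, 1.66 to 2.64 in Col vehicle and 0.63 to 0.77 at 5d post-CFA. In 1C against vehicle, 18 of its 18 tested genes were higher in the fit (median log2 fold change 2.52, against 0.01 over all genes), and edgeR called 0 and DESeq2 14 of them. At 5d post-CFA Krt14 was 11.2 to 14.1 CPM and Krt10 1.75 to 3.21 CPM, and in the CFA vehicle mice they were 1.69 to 4.37 and 1.08 to 2.0 CPM. The epidermal list had -0.01 to 0.27 in these vehicle mice, and at 5d 1 of its 7 tested genes was called higher, Krt5 (2.36, SE 0.31, edgeR adjusted p = 0.0352), where 0.863% of all genes were. Krt14 at 5d did not overlap with the CFA vehicle mice, and neither did 19.9% of the 14026 genes tested there. The part of either tissue in the levels of the 2 genes was not tested.

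Pip was high beside low Smr3a in 2 Col libraries. In 1C replicate 1 Pip was 7330 CPM with 641 CPM of Smr3a, and at 12d replicate 2 it was 495 CPM with 11.8 CPM of Smr3a. Obp1a, an odorant-binding protein abundant in the lacrimal gland, was 51100 and 3630 CPM in these libraries, and the lacrimal list of 8 genes had a mean log2(CPM + 0.5) of 12.00 and 8.49. Pip was also above Smr3a at 2d replicate 3, with 22.8 CPM of Pip, 8.12 CPM of Smr3a and 96 CPM of Obp1a. Cldn22 was 1.26 and 0.725 CPM in the first 2 libraries and Csn3 0.165 and 0 CPM, levels of libraries low in Smr3a. Cxcl17 was 4.61 CPM in 1C replicate 1, the highest of the 16 libraries low in Smr3a, and 0.845 CPM at 12d replicate 2. Obp1a was only 0.953 to 15.8 CPM at 5d post-CFA.

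**Figure D4:**
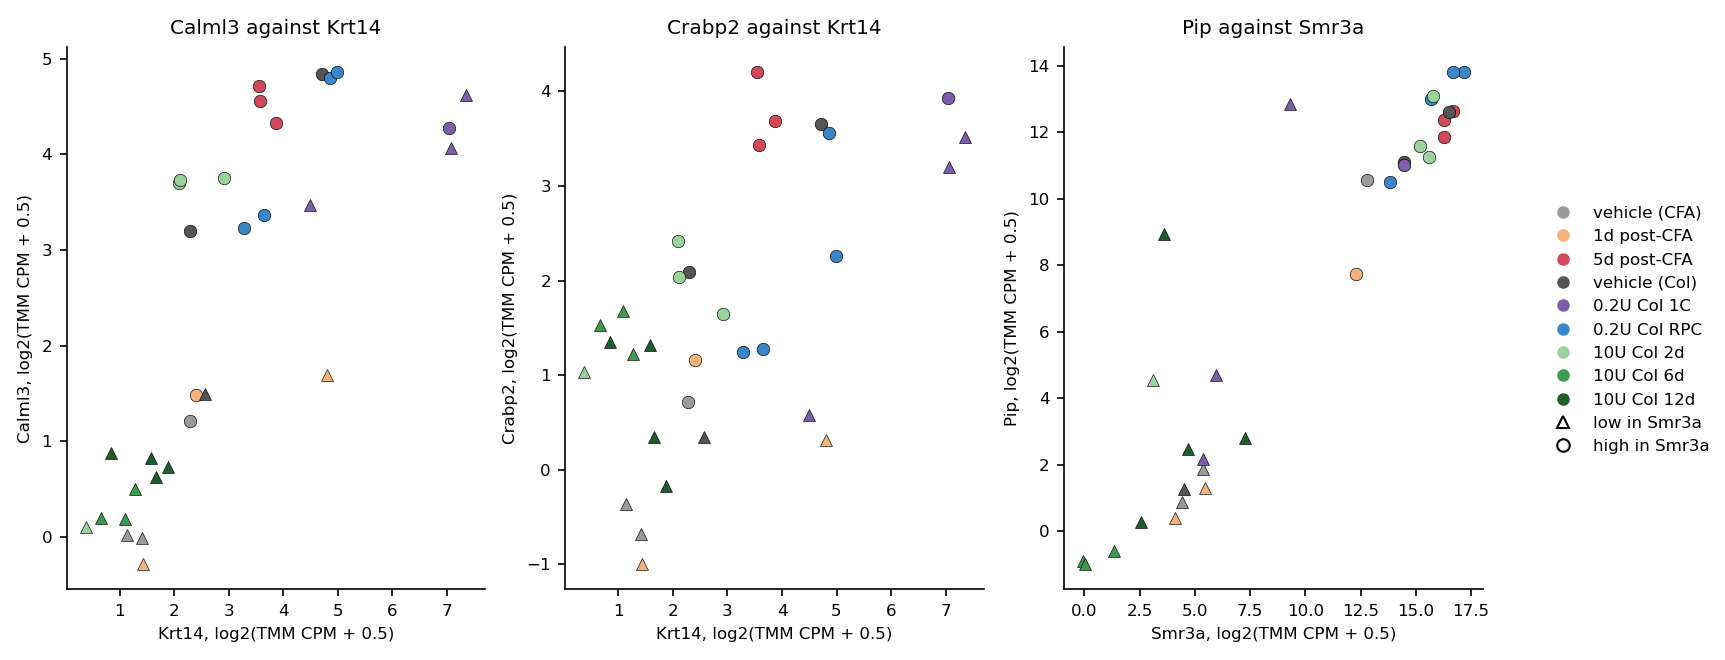
Calml3 and Crabp2 against Krt14 (left and middle) and Pip against Smr3a (right), all as log2(TMM CPM + 0.5), in the 31 libraries coloured by group, with triangles for the 16 libraries low in Smr3a. The 1C triangles reach 163 CPM of Krt14 with up to 24 CPM of Calml3, and in the right panel 1C replicate 1 (7330 CPM of Pip) and 12d replicate 2 (495 CPM) have more Pip than Smr3a, as does 2d replicate 3 at lower levels (22.8 CPM).

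Genes most like each member were ranked by Pearson's r of log2(CPM + 0.5) over the 31 libraries among 15526 genes, as a description, since all points share the division by Smr3a. Cldn22 was most like Gm17495 (r = 0.986), 3110099E03Rik (0.986), Dcpp2 (0.977), Dcpp3 (0.977) and Slc12a8 (0.975), with 0.971 to 0.987 over the 22 Col libraries. Dcpp2 and Dcpp3 encode secreted proteins of the demilune and parotid type, and Smr3a ranked 28 (r = 0.957). Csn3 was most like Gm17495 (0.975), Prol1 (0.971), 3110099E03Rik (0.967), Dcpp2 (0.967) and Cldn22 (0.958), with Smr3a at rank 92 (0.886). Over the Col libraries alone these 5 had r of 0.959 to 0.982.

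Cxcl17 was most like Elf3 (0.947), Tmprss2 (0.933), Rab17 (0.928), Bsnd (0.924) and Ccdc129 (0.921), with Smr3a at rank 31 (0.885). Elf3 is an epithelial transcription factor, Tmprss2 a serine protease of the epithelial surface and Rab17 a trafficking protein of polarized epithelial cells. Over the Col libraries their r was 0.913 to 0.958.

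Calml3 was most like Mapk13 (0.948), Pkp3 (0.943), Tcfap2a (0.933), Klc3 (0.932) and Spnb3 (0.930). Pkp3 is a plakophilin of desmosomes and Tcfap2a a transcription factor of the epidermis. Smr3a ranked 208 (0.818) and Krt14 343 (0.776). Crabp2 was most like Rapgefl1 (0.885), Soat1 (0.865), Tns4 (0.865), Acsf2 (0.863) and Car12 (0.860), with 0.783 to 0.894 over the Col libraries. Smr3a ranked 791 (0.593) and Krt14 707 (0.617) for Crabp2.

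Other genes of the members' families gave a context. Of 23 listed claudins, 12 were tested at 5d post-CFA, 8 were higher in the fit and 1 was called higher, against 0.863% of all genes (Cldn4, log2 fold change 2.77, SE 0.39, adjusted p = 0.0397). At 6d after 10U Col, 11 were tested, 4 were called lower and 1 higher, against 7.09% and 8.56% of all genes. There edgeR called Cldn3 (-4.60, SE 1.27, adjusted p = 0.0343) and Cldn10 (-5.04, SE 1.31, adjusted p = 0.0289), claudins of gland epithelium, lower. Cldn1 (-1.63, SE 0.3, adjusted p = 0.0109) and Cldn19 (-2.66, SE 0.54, adjusted p = 0.0144) were also called lower. Cldn2 was called higher (3.22, SE 0.82, adjusted p = 0.0279). Cldn5 and Cldn12, abundant claudins of the list, were at 18.0 to 20.5 and 32.6 to 40.7 CPM at 5d post-CFA and were not called there.

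The list of CXC and mucosal chemokines and their receptors holds 19 genes besides Cxcl17. At 6d, where Cxcl17 was lower in the fit, 4 of 12 tested were called higher and 0 lower, against 8.56% and 7.09% of all genes: Cxcl9 (1.31, SE 0.39, adjusted p = 0.0440), Cxcl10 (2.83, SE 0.79, adjusted p = 0.0360), Cxcl16 (2.45, SE 0.25, adjusted p = 0.00219) and Gpr35 (3.12, SE 0.61, adjusted p = 0.0130). Cxcl9 and Cxcl10 are chemokines induced by interferon, and Gpr35 is a receptor found on immune and gut epithelial cells. At 2d, 1 of 15 was called, Cxcl5 (7.58, SE 1.49, adjusted p = 0.0483), a chemokine for neutrophils. At 5d post-CFA 0 of 11 were called by edgeR and 2 by DESeq2, with 4 at an unadjusted p under 0.05.

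Genes of the retinoic acid pathway, in which Crabp2 acts, were mostly measured in all groups. At 5d post-CFA 0 of 21 tested were called by either tool, with 3 at an unadjusted p under 0.05, and the median log2 fold change was -0.24. At 6d, 3 of 23 were called higher, among them the carrier Fabp5 (2.52, SE 0.29, adjusted p = 0.00292), and 6 lower, among them the synthesizing enzyme Aldh1a1 (-1.89, SE 0.43, adjusted p = 0.0208) and the receptor Rxra (-1.10, SE 0.20, adjusted p = 0.0111). The background of calls at 6d was 8.56% higher and 7.09% lower.

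Of the calmodulin genes, Calm4, a calmodulin-like gene of the epidermis, was called lower at 2d (-2.23, SE 0.44, adjusted p = 0.0483), 6d (-3.13, SE 0.38, adjusted p = 0.00315) and 12d (-2.59, SE 0.39, adjusted p = 0.0232). None of 7 other milk protein genes besides Csn3 had enough counts to be tested at 5d post-CFA, and Lalba, Wap and Glycam1, the most abundant of them by mean CPM over the 31 libraries, were at 0 to 0.106 CPM there. Csn3 had 153 to 268 counts in the same libraries.

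The other lists were counted in the same way. At 6d, where 7.09% of all genes were called lower and 8.56% higher, 7 of 7 tested salivary genes were called lower, as were 2 of 3 tested genes of the granular duct list, 4 of 6 of the lacrimal list, 9 of 18 of the simple epithelium list and 10 of 15 of the epidermal list, with Sprr1a of that list higher (3.12, SE 0.65, adjusted p = 0.0162). The skeletal muscle list had 4 of 10 called lower. The oral mucosa list had 1 of 1 tested gene called lower, Krt24 (-2.21, SE 0.41, adjusted p = 0.0112), and the hair follicle list 0 of 1. At 5d post-CFA 15 of 15 tested salivary genes were higher in the fit (median log2 fold change 5.08, against -0.02 over all genes), of which edgeR called 0 and DESeq2 4, and edgeR called 5 of 20 in the simple epithelium list. Over all 14026 genes edgeR called 0.863% higher there, and DESeq2 called 462 genes higher. The 5d contrast is also the one that chose the members. Testing needed 10 counts in 3 libraries, so list genes near 0 in one group were tested only through the other. Pip, for example, had 0 to 4 counts in the 6d libraries. The direction of such genes was largely set in advance at 5d and at 6d, and nothing is read from it.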

How the data were processed

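Poly(A) RNA of 31 masseter muscles was sequenced with 50-base single-end reads. Per the labels and the study's methods, the authors aligned reads with TopHat2 to mm9 and counted them per gene with HTSeq, and the deposited values are raw counts per gene symbol, not normalized. Versions and the strand setting are not given in the sources used here. Lines that name no gene, such as ambiguous reads, were left out of library sizes. Gene models for lengths came from GENCODE.

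Each comparison covered the genes that reached 10 counts in 3 or more of its libraries and used edgeR 4.0.16 in R 4.3.3 (TMM factors, quasi-likelihood test, Benjamini-Hochberg adjustment), each Col group against the Col vehicle group, without a block. The study used DESeq2, which is an alternative here (1.42.0). Since each library is a different mouse, the p-values of edgeR and DESeq2 weigh group differences against the spread between mice. The permutation p-values of relations do not isolate that spread, since libraries were permuted across treatment groups. Relations were tested two-sided with 100000 permutations of log2(CPM + 0.5) within sets of libraries split at the largest gap in Smr3a or Pip, adjusted over 18 relations, and on deviations from group means with an exact test. On simulated counts with 200 genes changed 4-fold (log2 change 2), edgeR recovered 141 for 4 against 3 mice varying as the Col vehicle group (13841 genes), with 10 wrong calls among 151. The changed genes were drawn above a minimum mean count and called on adjusted p alone. That share was not shown to hold for the members, which differed widely between the Col vehicle mice.

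The genes described are the 5 members, Smr3a, Pip, the 5 genes most like each member over the 31 libraries, the 3 most abundant genes of each of 13 lists (of 195 symbols, 4 not matched) and list genes called in a Col comparison. Some genes that this rule names are not reported here. The members and lists were chosen with earlier results of these data known. Other genes (Krt14, Krt10, Epcam, Obp1a, Amy1, Wwc2 and Cldn24) are given as context and Cldn4 as the single claudin called at 5d post-CFA, chosen after values were seen. No 2 libraries were duplicates (highest r of 465 pairs 0.9952). Alternatives were another tool, scaling, filter, reference, fit, pseudocount, block and each library left out. The relations within the 10U libraries and within the 0.2U and vehicle libraries were added after seeing the data.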

Additional observations from a re-analysis of the deposited data

Results flagged for a closer look

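Of 28 combinations of a gene (the 5 members, Smr3a and Pip) with a group of 4 mice, 7 had a mouse far from the other 3. The measure was Dixon's criterion for the gap over the range, on CPM without a log scale. The same mice recur across genes that vary together, so the 28 are not independent and no chance rate is set beside the 7. In 1C, replicate 3 stood far above the others in Csn3 (2.18 CPM against 0 to 0.165), Cldn22 (15.8 CPM against 0.62 to 1.26) and Smr3a (22500 CPM against 40.4 to 641). At 2d after 10U Col, replicate 3 was far below the others in Calml3 (0.577 CPM against 12.5 to 13.0), and it was the 2d library low in Smr3a. At 12d, replicate 1 was far above the others in Smr3a (152 CPM against 5.39 to 25.1) and in Csn3 (0.0482 CPM, which is 1 count, against 0), and replicate 2 in Pip (495 CPM against 0.712 to 6.51).

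Cldn22 and Calml3 were below every vehicle mouse at 6d after 10U Col (log2 fold changes of -7.36 and -4.14) and above every vehicle mouse at 5d post-CFA, the rise that chose them. Of all genes tested, 47% did not overlap with vehicle at 6d and 19.9% at 5d post-CFA, in either direction. The difference between these effects was not tested.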

How the results depend on the processing

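Of the log2 fold changes of members against Col vehicle, no direction changed at 6d or 12d under the alternatives run, and those that changed elsewhere were for differences that did not pass the test. With the replicate block they became 0.53 for Cxcl17 in 1C, 0.45 for Crabp2 in RPC and 0.18 for Cxcl17 at 2d. The replicate numbers did not pair the Col libraries (mean r of same-numbered deviations -0.123 to 0.156), and with the block 2 members were called at 6d, while the adjusted p of Cxcl17 among the Col groups rose to 0.0661 in edgeR. In the CFA 1d comparison, for which no member test is reported here, every pair was above 0.1 (0.19 to 0.605). With vehicle mice of both experiments they became 0.73 for Crabp2 in RPC, and at 2d 0.48 for Cxcl17, 0.03 for Csn3, 0.09 for Crabp2, 0.28 for Cldn22 and 0.52 for Calml3.

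Leaving out 1 library at a time gave, in 1C, -1.70 to 1.10 for Cxcl17 and -0.10 to 1.68 for Calml3. In RPC it gave -0.24 to 2.50 for Cxcl17, -0.14 to 1.45 for Csn3, -1.0 to 1.10 for Crabp2 and -0.10 to 2.27 for Cldn22. At 2d it gave -0.67 to 2.05 for Cxcl17, -1.31 to 0.45 for Crabp2, -1.2 to 1.09 for Cldn22 and -0.89 to 0.8 for Calml3. Vehicle replicate 2 set the high end of each of these ranges. Members called lower at 6d were 0 to 2, and at 12d 0 to 2. Members that differed among the Col groups were 3 to 5.

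Members called lower at 6d were 4 in a fit shared by the 22 Col libraries and 1 with the vehicle mice of both experiments. At 12d they were 2 with DESeq2 and 3 in the shared fit. In the shared fit Csn3 (0 or 1 count in each 6d and 12d library) and Cldn22 (4 to 6 counts at 6d) were tested mainly through other groups. Their direction was thus largely set in advance. The share of all genes called in that fit was not counted, and nothing is read from its member counts. DESeq2 called more genes than edgeR in 6 of 7 comparisons by over 1.5 times in at least 1 direction: 266 higher and 39 lower in 1C, 109 and 43 in RPC, 1004 and 834 at 2d, 196 and 187 at 12d, 45 and 8 at 1d post-CFA, and 462 and 65 at 5d post-CFA, where edgeR had 0 and 0, 0 and 0, 138 and 115, 68 and 46, 0 and 0, and 121 and 6. The cause was not tested.

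The r of Crabp2 with Smr3a in low libraries was -0.23 as Spearman's rho, -0.21 on deviations from group means, -0.92 within the 10U libraries and -0.31 to 0.32 without each library in turn. On deviations from group means, r became -0.10 for Calml3 with Smr3a and -0.72 for Calml3 with Pip in the low libraries, and Cldn22 with Pip in the low libraries was -0.07 without the 6d group. On deviations from group means 0 relations passed in libraries high in Smr3a, low in Smr3a (0) and high in Pip (0), but in the first the smallest adjusted p a single relation can reach is 0.0625, and r there was 0.79 to 0.97 against 0.34 to 0.95. Within the 10U libraries low in Smr3a the 3 relations that had passed did not, and 1 other did, the negative one of Crabp2. Within the 0.2U and vehicle libraries high in Pip 0 passed. Without each library in turn they were 2 to 4 high in Smr3a, 2 to 3 low in Smr3a, 0 to 4 high in Pip and 0 to 2 low in Pip. 8 values could not be computed. In libraries low in Smr3a, counts of Csn3 and Cldn22 limit what can be told.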
